A study of Schizosaccharomyces pombe with 8 samples.

Results

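A set of 34 gene IDs of fission yeast, coding-type by their prefix, had higher means in the rpb1 S2A mutant than in WT. Their means were not raised to the same extent in the S7A or Y1F mutants. The members were chosen by their measured levels, in CPM (a gene's count scaled to the library's total). A member had an S2A mean of at least 3 CPM, an S2A mean of at least 1.7 times the WT mean, and S7A and Y1F means each under 1.3 times the WT mean. The rule could take 5056 of the 5186 coding-type IDs among 7000 IDs in all, since some named ID groups and single genes, many of them near chromosome ends, were set aside. Of these, 4823 had an S2A mean of at least 3 CPM and 157 of them were also at least 1.7 times WT. The limit on S7A left 75, and the limit on Y1F left 34. The other 123 were at or above 1.3 times WT in S7A, in Y1F or in both.

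RNA polymerase II carries on its largest subunit, Rpb1, a long tail of repeated heptads, the C-terminal domain (CTD). Kinases and phosphatases change the phosphorylation of tyrosine 1, serine 2 and serine 7 of the repeat as a gene is transcribed, and factors for elongation, RNA processing and termination bind the tail in its different states. In fission yeast, serine 2 of the repeat is known for its part in mating and sexual differentiation, where its loss lowers expression of the regulator ste11.

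The 8 libraries came from 4 strains with 2 libraries each: S2A, with serine 2 of the repeats replaced by alanine, S7A, with serine 7 replaced by alanine, Y1F, with tyrosine 1 replaced by phenylalanine, and WT. All 4 were h- (one mating type, M) and carried Rpb3-3HA::hphMX6, a tagged polymerase subunit, and the 3 mutant alleles of rpb1 were marked with kanMX6, which WT lacks at that gene. Cells were grown in YES medium to an optical density of 0.5, and ribosomal RNA-depleted total RNA was sequenced as read pairs of 100 nt. The titles give both libraries of a genotype the same strain number, so anything else that differs between these strains cannot be told apart from the rpb1 allele, and p-values measure the spread between libraries that are not stated to be separate cultures.

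Total counts were 13391705 to 23081870 per library. Replicates of a strain differed by more than counting noise, with a chi-square per gene of 4.93 in Y1F to 10.97 in WT. The gene carrying the mutations, rpb1, had 396 and 381 CPM in S2A, 375 and 378 CPM in S7A, 457 and 459.9 CPM in Y1F and 701 and 688 CPM in WT, and its log2 fold change over WT came to -0.88 ± 0.044 for S2A, -0.88 ± 0.044 for S7A and -0.65 ± 0.044 for Y1F (SE). A gene count does not show the substitution itself. Of 7 M-cell genes, 6 passed the filter on low counts, and the M-factor gene mfm1, at 0.0596 to 0.523 CPM over the 8 libraries, did not. The pheromone transporter mam1 had 51.8 and 51.6 CPM in S2A, 65.8 and 62.3 CPM in S7A, 84.8 and 82.5 CPM in Y1F, and 88.5 and 90.3 CPM in WT, and it was called lower than WT in all 3 mutants.

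All 34 members passed the filter on low counts, and the lowest count of any member in any library was 10. The annotation matched 33 of them, all as protein-coding genes, and SPBC1685.12c was not matched. A standard gene name was given to 23. On chromosomes I, II and III lay 15, 9 and 9 matched members, or 0.642%, 0.480% and 0.972% of the matched coding IDs there.

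The S2A mean was 1.704 to 8.20 times the WT mean, with a median of 2.04. It was at least 2 times WT in 18 members and at least 3 times in 3, mde5, mug137 and SPBC24C6.09c. The S7A mean was 0.502 to 1.29 times WT with a median of 1.06, and the Y1F mean was 0.554 to 1.24 times WT with a median of 0.959. These values chose the members, so they are given as a description without a test. In bulk cultures, more cells with a transcript and more of it per cell cannot be told apart. The members took 0.302% and 0.296% of all counts in the S2A libraries, 0.165% and 0.167% in S7A, 0.152% and 0.153% in Y1F, and 0.151% and 0.155% in WT.

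Both S2A libraries lay above both WT libraries, and above all 6 other libraries, in 33 of 34 members, the exception being inv1. Among the 4954 coding IDs that the rule could take and that were tested, 39.4% had both S2A libraries above both WT libraries and 15.3% had them above the 6 others. The higher of the 2 libraries of a strain was 1.06 times the lower in S2A, 1.079 times in S7A, 1.081 times in Y1F and 1.087 times in WT, as medians over the members. In the edgeR fit of all 8 libraries, 33 of 34 members were called higher in S2A than in WT at an adjusted p under 0.05, where 28.8% of the 6243 genes tested were called higher. Because the rule used these levels, nothing is read from that count or from the order of the S2A libraries.

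**Figure D1:**
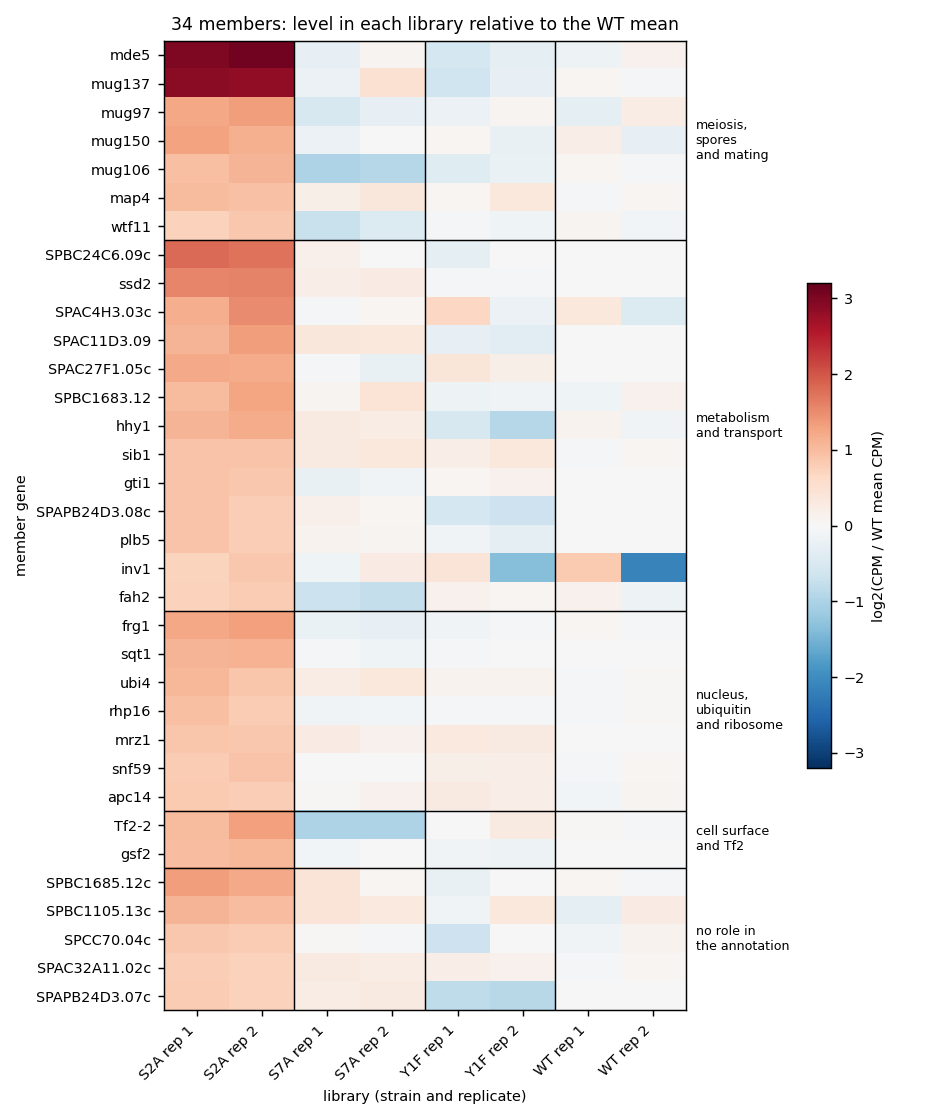
Colour shows the log2 ratio of each member's CPM in each library (columns) to its WT mean, and the rows are the 34 members grouped by role. The 2 S2A columns are red throughout, with mde5 and mug137 darkest. Blue cells in the S7A columns include those of Tf2-2, mug106, wtf11 and fah2. Blue cells in the Y1F columns include those of SPAPB24D3.07c, SPAPB24D3.08c, hhy1 and, in replicate 2, inv1. The WT replicates of inv1 differ in colour.

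The rule's limits ran through closely spaced values. Just inside the limit on S2A over WT were SPAPB24D3.07c at 1.704 times, SPAC32A11.02c at 1.71 times and fah2 at 1.71 times, and just outside were hen1 at 1.68 times, rdh54 at 1.68 times and SPAC3H1.08c at 1.66 times. Genes on both sides of a limit thus had nearly the same ratio. For S7A over WT, SPBC1105.13c at 1.29 times, SPAC11D3.09 at 1.28 times and sib1 at 1.24 times were inside, and eis1 at 1.31 times, SPAC27D7.09c at 1.32 times and osh6 at 1.34 times were outside. For Y1F over WT, mrz1 at 1.24 times, SPAC4H3.03c at 1.24 times and SPAC27F1.05c at 1.22 times were inside, and tel1 at 1.33 times, SPCC1235.18 at 1.37 times and ats1 at 1.37 times were outside. At the level limit, the members with the lowest S2A means were SPAC11D3.09 at 4.61 CPM, hhy1 at 4.72 CPM and mug97 at 4.79 CPM, and Tf2-13 at 2.75 CPM, Tf2-10 at 2.61 CPM and SPAC17A2.11 at 1.19 CPM met the ratios but not the level.

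Genes of meiosis, spores and mating made up 7 members, with a median S2A to WT ratio of 2.31. They held both of the members with the highest ratios. The gene mde5, an alpha-amylase homologue known as a target of the meiotic forkhead factor Mei4, had 11.4 and 12.002 CPM in S2A, 1.19 and 1.52 CPM in S7A, 0.971 and 1.14 CPM in Y1F, and 1.27 and 1.57 CPM in WT. Its S2A libraries stood apart from the other 6, whose ranges overlapped between S7A and WT, and its log2 fold change in S2A over WT was 2.99 ± 0.20 (SE).

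The gene mug137, one of the meiotically upregulated (mug) genes and a BAR-domain adaptor protein, had 8.52 and 8.23 CPM in S2A, 1.01 and 1.60 CPM in S7A, 0.747 and 0.955 CPM in Y1F, and 1.21 and 1.094 CPM in WT. Its log2 fold change in S2A over WT was 2.81 ± 0.24 (SE). The 2 WT libraries lay within the span of the 2 S7A libraries, and both Y1F libraries lay below them. Without S7A replicate 1, mug137 left the set. The other mug members had smaller ratios of S2A to WT, 2.44 for mug97, 2.31 for mug150 and 2.04 for mug106.

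In S7A, mug106 was on the other side of WT. It had 14.4 and 15.8 CPM in S2A, 3.75 and 3.94 CPM in S7A, 5.68 and 6.37 CPM in Y1F, and 7.71 and 7.11 CPM in WT. All S7A and Y1F libraries were below both WT libraries, and both S2A libraries were above them.

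The mating member map4 encodes a surface agglutination protein that is specific to P cells, the opposite mating type to that of these strains. It had 34.7 and 32.6 CPM in S2A, 19.5 and 22.1 CPM in S7A, 17.8 and 21.6 CPM in Y1F, and 16.5 and 17.7 CPM in WT. All 4 S7A and Y1F libraries were above both WT libraries, by less than either S2A library. The seventh gene, wtf11, is annotated as a wtf element, of a family that includes meiotic drivers. The annotation does not say whether wtf11 is a driver, and how far its reads are shared with other copies is not known here. It had 30.9 and 33.4 CPM in S2A, 11.3 and 13.5 CPM in S7A, 17.8 and 16.7 CPM in Y1F, and 19.5 and 17.2 CPM in WT. Both S7A libraries of wtf11 were below both WT libraries, and the Y1F and WT libraries overlapped.

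Metabolism and transport made up 13 members, with a median S2A to WT ratio of 2.21. The member SPBC24C6.09c, of the phosphoketolase family, had 15.3 and 14.6 CPM in S2A, 4.89 and 4.38 CPM in S7A, 3.51 and 4.32 CPM in Y1F, and 4.395 and 4.38 CPM in WT, and its log2 fold change in S2A over WT was 1.73 ± 0.15 (SE). The gene ssd2, a succinate-semialdehyde dehydrogenase, had 15.6 and 15.9 CPM in S2A, 6.20 and 6.33 CPM in S7A, 5.15 and 5.09 CPM in Y1F, and 5.29 and 5.33 CPM in WT, with a log2 fold change in S2A over WT of 1.53 ± 0.13 (SE). For ssd2 the libraries of a strain lay close together, and for both genes the S2A libraries were far above the rest.

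Smaller ratios were found for enzymes of carbon and nitrogen compounds. The S2A mean was 2.54 times WT for SPAC4H3.03c, annotated as a glucan glucosidase, 2.33 times for SPAC11D3.09, an agmatinase, and 2.29 times for SPAC27F1.05c, an aminotransferase. The ratio of SPAC4H3.03c depended on the WT libraries, which had 4.97 and 2.94 CPM, and its log2 fold change in S2A over WT was 1.74 without WT replicate 1 and 0.95 without WT replicate 2. SPAC4H3.03c left the set without WT replicate 1 or Y1F replicate 2.

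Among genes of uptake and of small molecules, sib1 encodes the synthetase that makes ferrichrome, an iron-binding siderophore. It had 594 and 591 CPM in S2A, 388 and 396 CPM in S7A, 366 and 399 CPM in Y1F, and 303 and 329.6 CPM in WT. All 6 mutant libraries were above both WT libraries, and the S2A libraries were above the other mutants. The S2A mean was 2.21 times WT for SPBC1683.12, a nicotinic acid transporter, 2.21 times for hhy1, a hydrolase, and 1.86 times for gti1, named for inducing gluconate transport.

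The lipid enzymes fah2, an amide hydrolase, and plb5, a phospholipase, had ratios of 1.71 and 1.79. In S7A, fah2 went the other way: it had 34.1 and 36.3 CPM in S2A, 12.8 and 12.1 CPM in S7A, 22.6 and 21.5 CPM in Y1F, and 22.7 and 18.5 CPM in WT. The Y1F and WT libraries of fah2 overlapped.

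Membership also depended on single libraries for inv1, the secreted invertase that splits sucrose and is repressed by glucose. The gene had 13.9 and 15.3 CPM in S2A, 7.69 and 10.14 CPM in S7A, 11.2 and 3.27 CPM in Y1F, and 14.97 and 1.92 CPM in WT. The first WT library reached the S2A level and the second was the lowest of all 8. Its log2 fold change in S2A over WT was 0.72 ± 0.57 (SE) and was not called. That value was 2.90 without WT replicate 1 and -0.10 without WT replicate 2. Beside WT replicate 2 alone, the S7A and Y1F means of 8.91 and 7.24 CPM were also higher. The gene left the set without WT replicate 1, WT replicate 2, S2A replicate 2 or Y1F replicate 2.

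**Figure D2:**
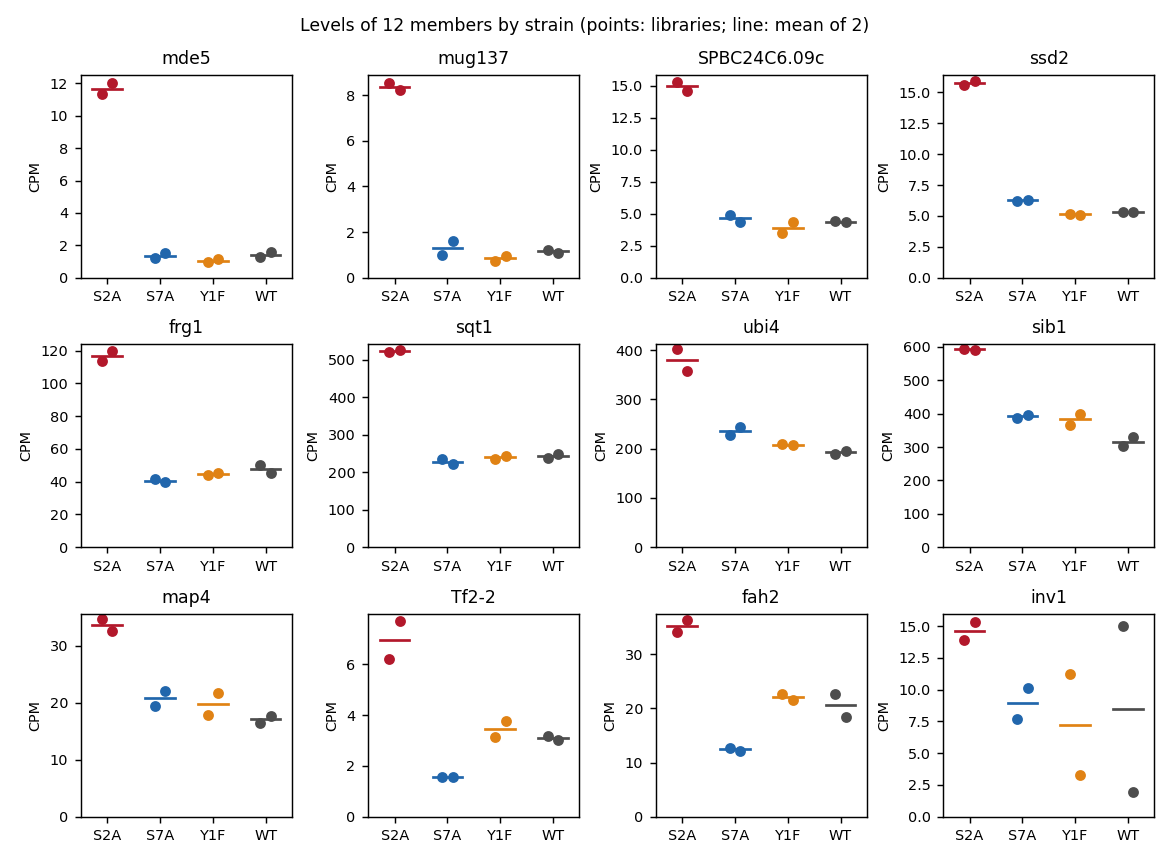
Each panel shows the CPM (from 0) of 1 of 12 members in the strains S2A, S7A, Y1F and WT, with a point for each library and a line for the mean of 2. The S2A points are above all others except in inv1, where a WT library at 14.97 CPM lies among the S2A libraries. The means of Tf2-2, fah2, frg1 and sqt1 are lowest in S7A.

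Genes of the nucleus, of ubiquitin and of the ribosome made up 7 members, with a median S2A to WT ratio of 1.85. The gene sqt1, known for a role in ribosome biogenesis, had 522 and 527 CPM in S2A, 235 and 222 CPM in S7A, 236 and 244 CPM in Y1F, and 239.5 and 248 CPM in WT, and its log2 fold change in S2A over WT was 1.07 ± 0.043 (SE). The gene frg1, whose human homologue has been linked to a muscular dystrophy region, had 114 and 120.0 CPM in S2A, 41.7 and 39.6 CPM in S7A, 44.4 and 45.5 CPM in Y1F, and 50.3 and 45.6 CPM in WT. The S2A libraries of both genes were well above the other 6, and the S7A libraries were below both WT libraries.

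The polyubiquitin gene ubi4 had 402 and 357 CPM in S2A, 227 and 245 CPM in S7A, 209.6 and 207 CPM in Y1F, and 189 and 196 CPM in WT. All mutant libraries were above WT, and reads of ubi4 may be shared with other ubiquitin genes. The remaining members of this group were rhp16, a helicase of nucleotide excision repair, mrz1, a ubiquitin ligase, snf59, a subunit of the SWI/SNF remodelling complex, and apc14, a subunit of the anaphase-promoting complex. Their S2A to WT ratios were 1.85, 1.83, 1.82 and 1.75, in that order. Of these, rhp16 had 123 and 111 CPM in S2A against 61.3 and 65.1 CPM in WT.

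A further pair of members was gsf2, a flocculin of the cell surface, and Tf2-2, a copy of the Tf2 retrotransposon. The S2A mean of gsf2 was 2.04 times WT, with 156 and 163 CPM in S2A against 77.4 and 78.9 CPM in WT. Tf2-2 had 6.23 and 7.69 CPM in S2A, 1.55 and 1.56 CPM in S7A, 3.14 and 3.77 CPM in Y1F, and 3.18 and 3.01 CPM in WT. It was highest in S2A and lowest in S7A, and its nearly identical copies make the division of reads between them uncertain. The last 5 members had no role in the annotation used, and their ratios were 1.704 to 2.41. The highest of these ratios was that of SPBC1685.12c, which had 20.2 and 18.6 CPM in S2A, 10.7 and 8.45 CPM in S7A, 6.87 and 8.10 CPM in Y1F, and 8.41 and 7.66 CPM in WT. Its S2A libraries were above the other 6, both S7A libraries were above both WT libraries, and its Y1F and WT libraries overlapped.

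The limits on S7A and Y1F are ratios, and some members passed them while being called different from WT. In S7A against WT, 6 members were called higher (ubi4, map4, sib1, mrz1, SPAC32A11.02c and SPAPB24D3.07c) and 5 lower (frg1, Tf2-2, mug106, wtf11 and fah2), where 23.1% of all genes tested were called higher and 24.3% lower. The log2 fold changes of the 6 were 0.20 (mrz1) to 0.31 (sib1), and those of the 5 were -0.99 (Tf2-2) to -0.24 (frg1). In Y1F against WT, 3 members were called higher (sib1, mrz1 and snf59) and 4 lower (hhy1, gsf2, SPAPB24D3.08c and SPAPB24D3.07c), where 17.6% of all genes tested were called higher and 17.4% lower. The Y1F count was 2 without Y1F replicate 2 and 4 without WT replicate 1. So the name of the set, genes raised in S2A alone, holds by the ratio limits, and 7 members were also called higher in S7A, Y1F or both.

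The order of S7A and Y1F was not set by the rule and was tested with edgeR's quasi-likelihood test and Benjamini-Hochberg adjustment over all genes. Of the 34 members, 16 were called, 10 higher and 6 lower in S7A than in Y1F. Of all 6243 genes tested, 48.7% were called in either direction, with 1436 higher and 1606 lower. The share of members called was thus near that of all genes. The median log2 fold change of the members was 0.14 in S7A over Y1F, beside -0.02 over all genes tested. The count was 8 without S7A replicate 2, 9 without Y1F replicate 1 and 7 without Y1F replicate 2. In all 14 settings tried, 4 of the 16 were called: SPAPB24D3.07c, SPAPB24D3.08c, Tf2-2 and fah2.

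SPAPB24D3.07c, which had no role in the annotation used, had 169 and 175 CPM in S7A against 80.9 and 77.5 CPM in Y1F, a log2 fold change of 1.17 ± 0.049 (SE, adjusted p = 2.83e-09 by edgeR). The neighbouring SPAPB24D3.08c, an NADP-dependent oxidoreductase, had 106 and 99.2 CPM in S7A against 64.4 and 59.9 CPM in Y1F, a log2 fold change of 0.78 ± 0.053 (SE, adjusted p = 2.01e-07 by edgeR). The S7A libraries were above the Y1F libraries in both genes. Tf2-2 and fah2 were the reverse, with log2 fold changes of -1.12 ± 0.23 (SE, adjusted p = 0.00174 by edgeR) and -0.77 ± 0.11 (SE, adjusted p = 0.000125 by edgeR).

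Smaller or less stable differences between S7A and Y1F were called for 12 members. Higher in S7A were hhy1, with a log2 fold change of 1.052 (adjusted p = 0.00374 by edgeR), and SPAC11D3.09, with 0.73 (adjusted p = 0.0205 by edgeR). Lower in S7A were mug106, with -0.60 (adjusted p = 0.00829 by edgeR), and wtf11, with -0.41 (adjusted p = 0.0138 by edgeR). The remaining 8 had log2 fold changes of -0.37 (SPAC27F1.05c) to 0.46 (SPBC1683.12). The members with the largest S2A ratios, mde5 and mug137, were not called, with values of 0.41 ± 0.29 and 0.68 ± 0.32 (SE).

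**Figure D3:**
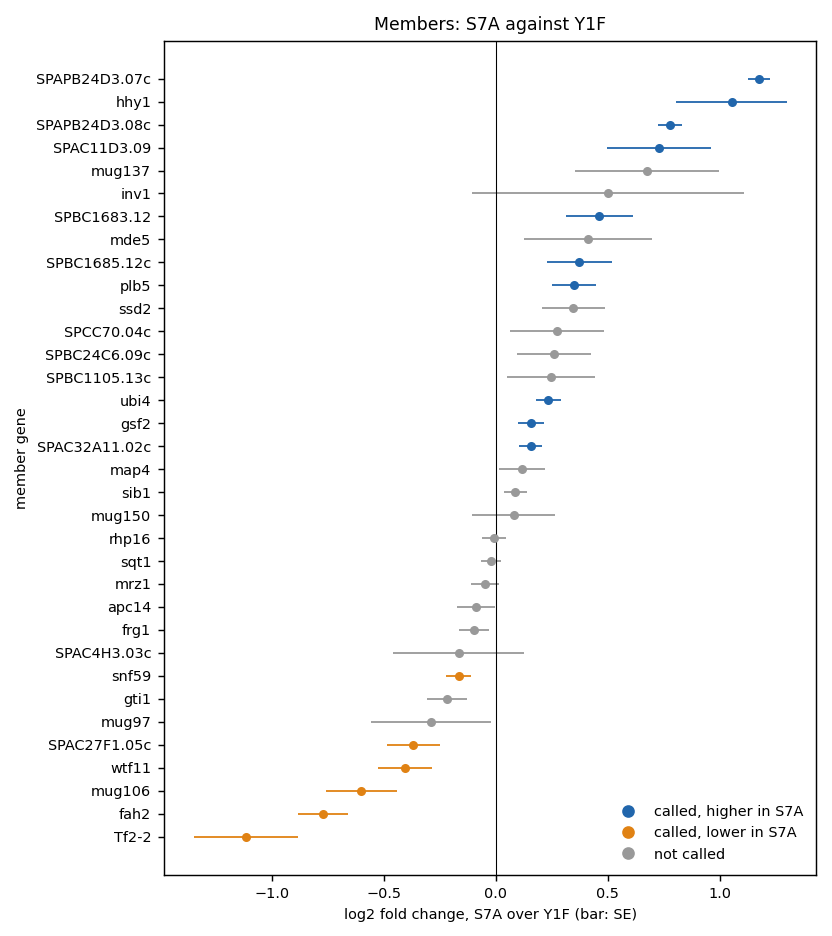
Points are the log2 fold changes of the 34 members in S7A over Y1F with SE bars, blue for the 10 called higher in S7A, orange for the 6 called lower and grey for the 18 not called. SPAPB24D3.07c is at the top at 1.17 and Tf2-2 at the bottom at -1.12.

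Features beside the members were examined next, since the rule did not use them. The strand setting of the authors' counting is not known here, so reads of a member and of an RNA opposite it cannot be told apart. Of the annotated noncoding RNAs with at least 50% of their length opposite a member, 9 were tested. In S2A against WT, 2 were called higher and 3 lower, and the median log2 fold change was -0.07, beside 63.9% higher and 10.8% lower of the 585 such antisense RNAs tested in all. The count of 2 was 1 without S2A replicate 2 and 1 without WT replicate 2.

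The 2 antisense RNAs called higher were opposite SPAC32A11.02c and rhp16, members with S2A to WT ratios of 1.71 and 1.85. SPNCRNA.828, opposite SPAC32A11.02c, had 6.38 and 4.59 CPM in S2A against 0.764 and 1.03 CPM in WT, a log2 fold change of 2.59 ± 0.27 (SE, adjusted p = 5.93e-06 by edgeR). It was also called higher in Y1F, with 3.43 and 3.05 CPM and a log2 fold change of 1.79 over WT. SPNCRNA.1105, opposite rhp16, had 19.0 and 22.7 CPM in S2A against 15.9 and 14.2 CPM in WT, a log2 fold change of 0.42 ± 0.12 (SE, adjusted p = 0.00834 by edgeR). With any overlap counted, 3 of 11 were called higher, the third being SPNCRNA.605, opposite hhy1, at 0.94 ± 0.15 (SE, adjusted p = 0.000171 by edgeR).

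The 3 that fell were SPNCRNA.1192, opposite wtf11, with 5.73 and 4.52 CPM in S2A against 11.9 and 13.1 CPM in WT (log2 fold change -1.31 ± 0.15, SE, adjusted p = 1.05e-05 by edgeR), SPNCRNA.706, opposite ssd2, at -0.32, and SPNCRNA.1226, opposite plb5, at -0.28. All 3 also fell in S7A against WT, with log2 fold changes of -2.37, -0.61 and -0.72 in the same order, and SPNCRNA.1192 fell in Y1F as well, at -0.62.

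**Figure D4:**
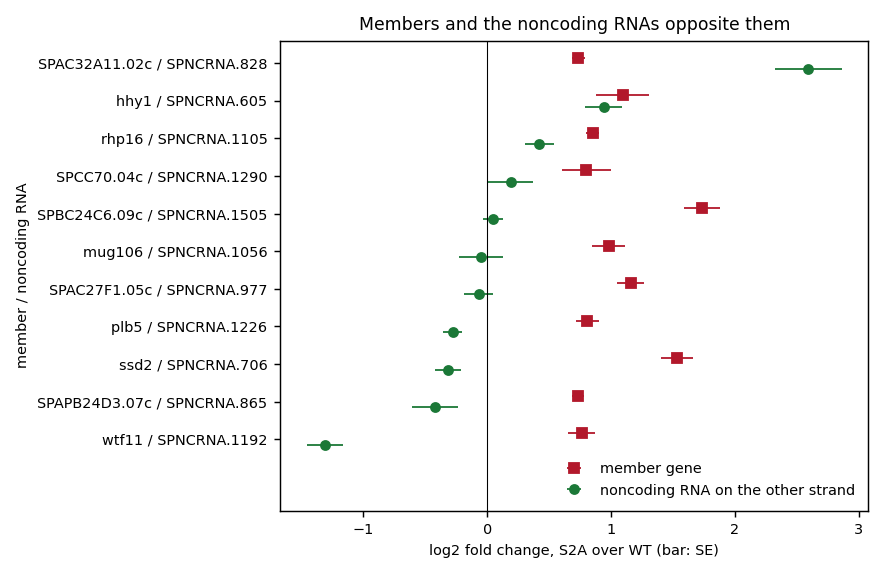
For the 11 pairs with any overlap, red squares give the log2 fold change of the member in S2A over WT and green circles that of the noncoding RNA opposite it, with SE bars. The members lie between 0.73 and 1.73, and the noncoding RNAs run from -1.31 opposite wtf11 to 2.59 opposite SPAC32A11.02c.

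The nearest gene upstream on the same strand was found for 33 members, and in 1 case it was itself a member. Of the other neighbours, 30 were tested, and 11 were called higher and 5 lower in S2A than in WT, with a median log2 fold change of 0.08, beside 28.8% higher and 26.6% lower of all genes tested. The largest was SPNCRNA.705 upstream of ssd2, with 1.69 and 2.29 CPM in S2A against 0.255 and 0.274 CPM in WT, a log2 fold change of 2.82 ± 0.42 (SE, adjusted p = 0.000126 by edgeR). Next came SPBC21D10.08c upstream of map4, at 1.303 ± 0.22 (SE, adjusted p = 0.000304 by edgeR), and ecl1 upstream of SPCC70.04c, at 0.89 ± 0.14 (SE, adjusted p = 0.000161 by edgeR). The gene ecl1, known for extending chronological lifespan, was called higher in all 3 mutants.

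Smaller rises in S2A over WT were found for nse1 upstream of fah2 at 0.59, SPNCRNA.1185 upstream of mug150 at 0.56, dre2 upstream of ubi4 at 0.44, rsc7 upstream of wtf11 at 0.30 and SPAC4A8.02c upstream of sqt1 at 0.25, all log2 fold changes. Some of these neighbours were also called higher in Y1F than in WT: SPBC21D10.08c at 0.93, SPNCRNA.1185 at 0.72, SPAC4A8.02c at 0.23 and nse1 at 0.21. Of 23 divergent coding neighbours, 7 were called higher and 3 lower in S2A, beside 28.8% higher and 26.6% lower of all genes tested. The divergent partner of sib1 is sib2, which makes the precursor hydroxyornithine for ferrichrome, and it had 46.1 and 46.2 CPM in S2A against 43.9 and 38.4 CPM in WT. Its log2 fold change of 0.12 ± 0.083 (SE, adjusted p = 0.227 by edgeR) was not called.

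At 2 places members lay next to or near each other. SPAPB24D3.08c is followed on the same strand by SPAPB24D3.07c and then by SPAPB24D3.06c, which is not a member. SPAPB24D3.06c had 20.2 and 19.3 CPM in S2A, 20.5 and 19.4 CPM in S7A, 26.8 and 28.5 CPM in Y1F, and 38.6 and 38.6 CPM in WT. It was below WT in every mutant library, with log2 fold changes of -1.004 ± 0.073 in S2A, -0.96 in S7A and -0.53 in Y1F (SE for S2A, adjusted p = 2.63e-07 by edgeR for S2A). On the other side, pdr1 had a log2 fold change of 0.01 in S2A and was not called.

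The genes sqt1 and mde5 flank SPAC4A8.02c. That gene had 94.8 and 89.5 CPM in S2A against 75.5 and 75.6 CPM in WT, a log2 fold change of 0.25 ± 0.048 (SE, adjusted p = 0.000735 by edgeR), much less than either neighbour. Beyond sqt1, emc1 had a log2 fold change of 0.00 and was not called, and beyond mde5, ptc4, a protein phosphatase, was called lower at -0.31 ± 0.055 (SE, adjusted p = 0.000454 by edgeR).

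**Figure D5:**
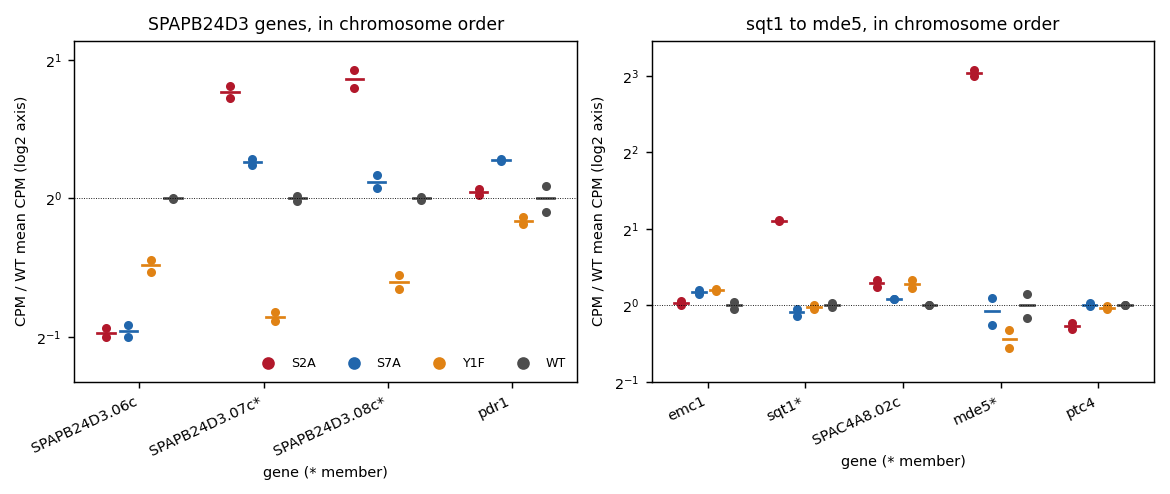
CPM of each gene relative to its WT mean (log2 axis) along the SPAPB24D3 genes and from emc1 to ptc4, with a point for each library of S2A, S7A, Y1F and WT, a line for the mean and a star on each member. In the left panel the S2A points are above WT in both members and below it in SPAPB24D3.06c, and in the right panel sqt1 and mde5 stand above their neighbours in S2A.

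Lists of related genes, drawn from general knowledge of fission yeast, show the setting of the members in the comparison of S2A with WT. Counts in S2A are read beside 28.8% of genes tested higher and 26.6% lower. Counts in S7A against WT are read beside 23.1% higher and 24.3% lower. Those in Y1F against WT are read beside 17.6% higher and 17.4% lower. Of 88 mug genes tested, 4 of them members, 40 were higher and 13 lower, with a median log2 fold change of 0.23. The 4 members are among the 40, and the rule chose them for their S2A level. The same list had 19 higher and 21 lower in S7A, and 23 higher and 9 lower in Y1F. Outside the set, mug131 and mug62 had larger log2 fold changes in S2A than any member, 4.31 ± 0.37 and 4.22 ± 0.22 (SE), and mug62 was also called higher in S7A at 1.94 and in Y1F at 1.082.

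Among the other lists of sexual development, 10 of 21 meiotic-expression (meu) genes were higher and 1 lower, 7 of 16 recombination and chromosome axis genes were higher and 1 lower, and 8 of 16 sporulation genes were higher and 4 lower. None of these held a member. In S7A these lists, in that order, had 10, 3 and 5 higher and 3, 4 and 4 lower. In Y1F they had 7, 6 and 3 higher and 2, 0 and 4 lower. The meiotic recombinase dmc1 had a log2 fold change of 3.57 ± 0.19 in S2A, 1.20 in S7A and 2.25 in Y1F (SE for S2A). Of 11 meiotic mRNAs that the RNA-binding protein Mmi1 removes from growing cells, 6 were higher and 1 lower in S2A, and mei4, which encodes the regulator of mde5, was at 0.31 ± 0.10 (SE). The Mmi1 list had 2 higher and 2 lower in S7A, and 6 higher and none lower in Y1F.

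Of 12 regulators of sexual differentiation, 3 were higher (ste6, byr2 and fus1) and 7 lower in S2A, none higher and 9 lower in S7A, and none higher and 6 lower in Y1F. The gene ste11 was at -1.94 ± 0.11 in S2A, -0.38 in S7A and -0.33 in Y1F, and mei2, the RNA-binding switch to meiosis, was at -3.06 ± 0.13 in S2A, -2.04 in S7A and -2.25 in Y1F (SE for S2A). Of 6 M-cell genes, 1 was higher and 3 lower in S2A, and the M-factor gene mfm2 was at -3.59 ± 0.15 (SE). The list of P-cell genes held 5, with 3 higher (map4, which the rule chose for its S2A level, map2 and sxa2) and 2 lower. Of these, map1 and map3, the P-cell regulator and the receptor for M-factor, were at -1.81 and -0.83, and sxa2 is in fact made by M cells, where it degrades P-factor.

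For sib1, the list of iron and copper uptake had 7 of 12 higher and none lower in S2A, with a median log2 fold change of 0.55. It had 2 higher and 4 lower in S7A, and 3 higher and none lower in Y1F. The counts include sib1 itself, which was called higher in all 3 mutants and was chosen for its S2A level. The ferroxidase fio1 was at 1.07 ± 0.29 and the iron permease fip1 at 1.04 ± 0.29 in S2A (SE), against -2.04 and -1.84 in S7A. For inv1, the list of hexose transporters and glucose-repressed genes had 1 of 13 higher, the hexose transporter ght5 at 2.16 ± 0.27 (SE), and 1 lower.

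For Tf2-2 and wtf11, the families were listed after the members were seen. Of 13 Tf2 copies, 5 were tested. Of these, 3 were higher and none lower in S2A, and none were higher and 3 lower in S7A. Of 20 wtf elements tested, 5 were higher and 1 lower in S2A, and none were higher and 6 lower in S7A. Tf2-2 and wtf11 are in these counts, as higher in S2A and lower in S7A, and the rule chose them for their S2A level. Copies of a family may share reads and are not taken as separate measurements.

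The remaining lists held no member. In S2A, 10 of 16 core stress genes were higher and none lower, 5 of 14 chaperones higher and 1 lower, 5 of 13 genes of oxidative stress and Pap1 higher and 4 lower, 1 of 12 targets of the cell-cycle factor MBF higher and 3 lower, none of 13 genes of amino acid and nitrogen uptake higher and 11 lower, and 3 of 14 kinases, phosphatases and readers of the CTD higher and 3 lower. In S7A these lists, in that order, had 12, 4, 7, 1, 1 and 2 higher and 2, 1, 1, 5, 10 and 5 lower. In Y1F they had 6, 0, 2, 3, 3 and 3 higher and 4, 3, 9, 3, 6 and 1 lower. The rise of core stress genes and the fall of uptake genes were thus not particular to S2A.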

How the data were processed

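RNA was measured in 8 libraries (2 each of S2A, S7A, Y1F and WT). The deposited counts are the authors' whole numbers of reads per gene ID. Per the submitters' processing notes, HISAT2, featureCounts, StringTie, DESeq2 and deepTools were used with build ASM294v2, with neither versions nor the strand setting stated. Names, classes and neighbours came from a RefSeq annotation of another build, which matched 6797 of 7000 IDs, so no coordinates, lengths or sequences are printed, and promoter motifs were not analysed here.

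The rule used CPM on column sums. Counts were tested in R 4.3.3 with edgeR 4.0.16 (filterByExpr, minimum count 10 and minimum total 15; TMM; quasi-likelihood fit of all 8 libraries, 1 mean per strain, 4 residual degrees of freedom), leaving 6243 genes with a biological coefficient of variation of 4.44%. Calls are at a Benjamini-Hochberg adjusted p under 0.05. A share of counts was not tested, since 2 against 2 libraries cannot go below p = 0.333 in an exact two-sided permutation test.

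Alternatives were DESeq2 1.42.0, RLE scaling, 2 other filters, fits of the compared strains alone, a replicate block, and leaving out each library. Named were the members with the largest S2A ratios, the highest levels, those at the limits, with the largest S7A to Y1F differences, with neighbours that changed, or in a gene list, and rpb1. The role groups, the wtf and Tf2 families and the list genes named outside the set were chosen after values were seen. The members and lists were chosen with earlier results of these data known.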

Additional observations from a re-analysis of the deposited data

How the results depend on the processing

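The rule gave 30 members on TMM-scaled CPM, 36 on coding counts, 37 with a minimum of 1 CPM, 27 with a minimum of 10 CPM, 18 with S2A at least 2 times WT, and 32 to 37 with 1 library left out. Of the 34 members, 29 were kept without WT replicate 1 (37 members) and 28 without WT replicate 2 (34 members). Besides inv1, these members left the set without some single library: mug137, SPAC4H3.03c, apc14, wtf11, fah2, SPAC32A11.02c, SPAPB24D3.07c, SPBC1683.12, SPBC1105.13c, SPBC1685.12c and SPCC70.04c. Members called higher in S2A than in WT were 33 or 34 in every setting tried except the stricter filter, which left SPAC11D3.09, hhy1 and mug97 untested and gave 30, and members called in S7A against WT were 9 to 11. Members called in Y1F against WT, 7 as reported, were 3 by DESeq2, 2 to 7 with 1 library left out and 5 or 6 with RLE scaling, the stricter filter or the compared strains alone. Members called in S7A against Y1F, 16 as reported, were 10 by DESeq2 and 7 to 17 with 1 library left out. Antisense RNAs called higher, 2 as reported, were 1 when 2 or more libraries had to reach 5 CPM, which tests fewer RNAs, and 1 to 3 with 1 library left out. The upstream neighbours called higher were 9 to 12, and the genes called in S7A against Y1F, 3042 as reported, were 2174 to 3376. The members took 0.318% of coding counts in S2A, beside 0.299% of all counts. The fold change of inv1 was 2.90 without WT replicate 1 and reversed to -0.10 without WT replicate 2, since those 2 libraries differ.

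The replicate numbers were not taken as pairs: the correlation of the deviations of same-numbered libraries was 0.23 for Y1F and WT and 0.14 for S2A and S7A, and -0.18 to -0.06 for the other 4 pairs of strains. With the replicate number as a block, 33 members were called higher in S2A against WT, 11 were called in S7A against WT, 7 in Y1F against WT and 15 in S7A against Y1F. With 2 libraries a strain, the members with the lowest counts have the widest errors.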
